A study of Homo sapiens with 10 samples.

Results

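PC3, an established human prostate cancer cell line that grows without androgen, was cultured for 48 h in RPMI lacking arginine (PC3 -R, 2 arrays, called starved below) or in the same RPMI with 200 mg/L L-arginine put back (PC3 +R, 2 arrays, called control below). Both media held dialyzed serum, which carries few free amino acids, and the cells came from ordinary serum-containing RPMI before the switch. These 4 arrays are all the PC3 arrays among the 10 Clariom S human arrays of the study, which hybridise labelled RNA to probe sets for annotated genes, and the other 6 hold CWR22Rv1, a second prostate cancer line. The CWR22Rv1 cells were kept without arginine for 24 h or 48 h, or for 48 h with the ketoglutarate ester DMKG added. Their controls were labelled as 24 h and 48 h in control medium. The members of the comparison are the 17687 genes whose probe set carries a single symbol, all of which were tested on all 4 arrays, and cell division, oxidative phosphorylation and DNA repair genes were set aside when genes were ranked. Values are log2 array signals, so that a difference of 1 is a doubling or a halving. The labels number the arrays of a group without saying whether they came from separate cultures, so their spread may be technical. Standard errors (SE) and p-values come from a fit to all 10 arrays, so that they also carry disagreement among the CWR22Rv1 arrays.

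Arginine is taken up from the medium by cells that make little of it themselves, and its loss is read by several sensors. Uncharged tRNA activates the kinase GCN2, which phosphorylates the translation factor eIF2 and so favours translation of ATF4, the transcription factor of the integrated stress response, whose targets include amino acid transporters, amino acid synthesis enzymes and tRNA synthetases. The kinase complex mTORC1 loses its arginine signal at the lysosome, which slows growth-related synthesis and releases autophagy.

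At an adjusted p under 0.05 in limma, the level was higher in starved than in control cells for 1697 genes and lower for 1770, which is 9.59% and 10.0% of the genes tested, and these genes are called risen and fallen below. The arrays of the groups did not overlap for any of them, which was also the case for 10596 of all 17687 genes, called or not. At least a 2-fold change was found for 853 of the risen and 1025 of the fallen genes, and at least an 8-fold change for 33 and 81. The median difference over all genes was 0.02. With 2 arrays a side each array carries weight: 847 genes rose and 1000 fell without PC3 -R replicate 1, 721 and 898 without PC3 -R replicate 2, 767 and 907 without PC3 +R replicate 1, and 815 and 1018 without PC3 +R replicate 2. Of the full set, 536 risen and 719 fallen genes passed whichever array was left out. Genes named below that did not are listed with the highest adjusted p of the 4 refits.

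The arrays were alike in range, with medians over genes of 6.80 and 6.81 in starved and 6.87 and 6.85 in control cells, and replicates correlated across genes at 0.995 in both groups. The 95th percentile of the negative-control probe sets over the 4 arrays was 8.05, and a group mean under it is called near background. Both groups were near background for 9885 genes, 847 of which were called, while 622 genes rose from a control level near background and 725 fell to a starved level near it. The named genes DUSP10, BMF, ZNF14, JUP, FBLN1, IL1A, CXCL3, CCL20, PSMB9, USP18, ACACB, PNPLA2, KDM7A and HSPA2 were near background in both groups, as were those for which it is said below. All 7 markers of the line were above background in both groups. KRT7, KRT18, KRT19, VIM and EPCAM were not called, at differences of -0.19, 0.12, -1.01, -0.05 and -0.05. CD44 rose by 0.99 ± 0.22 and KRT8 fell, with -1.03 ± 0.23, and CD44 lost the call without PC3 -R replicate 2, PC3 +R replicate 1 or PC3 +R replicate 2 (adjusted p up to 0.11). Of 7 measured markers of luminal androgen-responsive prostate cells 5 were near background in both groups, as were 18 of 19 measured markers of leukocytes, fibroblasts, endothelial and neuroendocrine cells. Among these 26 markers 1 fell, HOXB13, and 1 rose, INSM1 by 0.69 ± 0.20 near background in both groups, a call lost whichever array was left out (adjusted p up to 0.18).

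The 20 largest rises outside the classes set aside held secreted factors, stress regulators, protease inhibitors and transcription-related genes. GDF15, a secreted stress cytokine, read 13.74 and 13.73 in starved cells, against 8.03 and 7.78 in control cells. ATF3, a stress-induced transcription factor, read 11.97 and 11.96 in starved cells, against 6.98 and 6.68 in control cells. Their differences were 5.83 ± 0.72 and 5.14 ± 0.36 on the log2 scale (SE, n = 2 each; adjusted p = 0.0014 and 1.0e-04 in limma). The arrays of a group lay close together for both genes. Both were near background in control cells, as were TXNIP, AMTN, CSTA, SLPI, PI3, ESRP1, CTH, MXD1, DUSP1 and LURAP1L among the 20, so that these differences may understate the rises.

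The 20 also held 3 protease inhibitor genes and a splicing regulator. CSTA, a cysteine protease inhibitor of stratified epithelia, read 9.69 and 9.49 in starved cells, against 5.08 and 5.57 in control cells. SLPI, a secreted inhibitor of leukocyte serine proteases, read 9.23 and 9.32 in starved cells, against 5.41 and 4.66 in control cells, and PI3, the related inhibitor elafin, read 10.80 and 11.18 in starved cells, against 7.25 and 6.42 in control cells. These 3 genes rose by 4.27 ± 0.34, 4.24 ± 0.29 and 4.16 ± 0.29. ESRP1, an RNA-binding protein that drives epithelial splicing, read 11.79 and 11.71 in starved cells, against 7.81 and 7.90 in control cells (difference 3.90 ± 0.28, adjusted p = 1.1e-04). AMTN, which encodes the enamel matrix protein amelotin, rose by 4.65 ± 0.54, but its arrays lay far apart, at 8.71 and 10.54 in starved and 4.50 and 5.44 in control cells.

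The other genes of the 20 were spread over several roles. STC2, a secreted glycoprotein, read 16.64 and 16.73 in starved cells, against 12.58 and 13.06 in control cells. VEGFA, the angiogenic growth factor, read 14.53 and 14.22 in starved cells, against 10.51 and 10.65 in control cells. Both stood well above background in both groups and rose by 3.86 ± 0.30 and 3.79 ± 0.33. Transcription-related genes were TSC22D1, with a rise of 3.75 ± 0.25, HOXB9, with 3.63 ± 0.22, and MXD1, a MAX partner that opposes MYC, with 3.46 ± 0.24. NTN4, a laminin-related secreted netrin, rose by 3.45 ± 0.20, the schlafen family gene SLFN5 by 3.58 ± 0.22 and LURAP1L by 3.42 ± 0.21. The remaining 5, TXNIP, CHAC1, CTH, DDIT4 and DUSP1, are described with their lists.

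**Figure D1:**
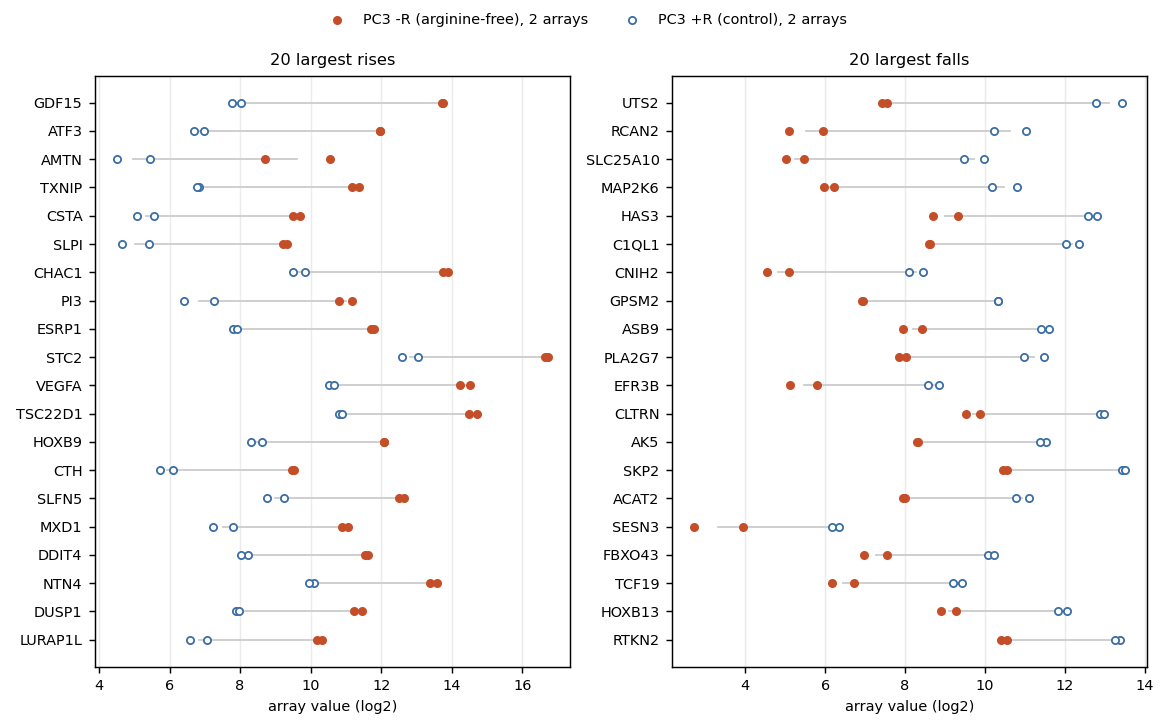
Array values (log2) of the 20 largest rises and the 20 largest falls outside the cell division, oxidative phosphorylation and DNA repair genes. Filled points are the 2 PC3 -R arrays, open points the 2 PC3 +R arrays, and the grey line joins the group means. Only genes without overlapping groups were ranked. AMTN has the widest spread within the starved group, at 8.71 and 10.54 in starved and 4.50 and 5.44 in control cells.

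The counts of each list below stand against 9.59% risen and 10.0% fallen of all genes. Lists share members, as GDF15, TXNIP, DUSP1 and GADD45A each count in more than 1. Counts of different lists are therefore not separate results. Most regulators of the integrated stress response rose. Of 17 measured regulators 12 rose and 1 fell (70.6% and 5.88%, against 9.59% and 10.0% of all genes), with a median difference of 1.48, and 7 to 8 rose when 1 array was left out. ATF4 itself was well above background in both groups and rose by 1.48 ± 0.19. After ATF3, the largest differences belonged to DDIT4, an inhibitor of mTORC1, with 3.46 ± 0.60, NUPR1, a small chromatin-associated stress protein, with 3.35 ± 0.19, TRIB3, a pseudokinase that restrains ATF4, with 2.98 ± 0.48, and JDP2, a repressor of the AP-1 family, with 2.90 ± 0.45. PPP1R15A, the phosphatase subunit that reverses eIF2 phosphorylation, read 11.13 and 11.13 in starved cells, against 8.27 and 8.29 in control cells. DDIT3, which encodes the transcription factor CHOP, rose by 2.06 ± 0.49. Of the eIF2 kinases, EIF2AK1, the heme-regulated one, fell, at 12.47 and 12.37 in starved and 13.51 and 13.45 in control cells, and EIF2AK4, which encodes GCN2, was not called, at 11.11 and 10.998 in starved and 11.50 and 11.59 in control cells (adjusted p = 0.086). DDIT3 lost the call whichever of the 4 PC3 arrays was left out (adjusted p up to 0.1).

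Of 25 measured ATF4 target genes of amino acid supply 16 rose and 0 fell, with a median of 1.54, and 7 to 9 rose when 1 array was left out. CHAC1, which cleaves glutathione, read 13.90 and 13.75 in starved cells, against 9.84 and 9.49 in control cells. ASNS, asparagine synthetase, read 14.49 and 14.72 in starved cells, against 11.66 and 11.55 in control cells. CTH, the enzyme that makes cysteine from cystathionine, was near background in control cells and read 9.54 and 9.47 in starved cells, against 6.11 and 5.73 in control cells. The 3 differences were 4.16 ± 0.81, 2.998 ± 0.32 and 3.59 ± 0.24, and the groups stood far apart for each. The SE also carries the disagreement of the 2 CWR22Rv1 experiments at 48 h, which gave differences of 1.86 and 6.34 for CHAC1. CHAC1 lost the call without PC3 -R replicate 1, PC3 -R replicate 2 or PC3 +R replicate 2 (adjusted p up to 0.058).

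The promoters of 2 of these genes are shown because they hold the 8-base element TGATGNAA that ATF4 and C/EBP partners are known to bind, and that of TXNIP, described with its own list, because it holds the paired element of the MondoA type, 2 copies of CACGAG 5 bases apart. Each run covers the 250 bases before the annotated start, 5′ to 3′ on the strand of the gene, from RefSeq on GRCh38.p14, with the matched letters in capitals. Both strands were searched, so that CHAC1 shows the reverse complement.
CHAC1, chr15:40953221-40953470, plus strand: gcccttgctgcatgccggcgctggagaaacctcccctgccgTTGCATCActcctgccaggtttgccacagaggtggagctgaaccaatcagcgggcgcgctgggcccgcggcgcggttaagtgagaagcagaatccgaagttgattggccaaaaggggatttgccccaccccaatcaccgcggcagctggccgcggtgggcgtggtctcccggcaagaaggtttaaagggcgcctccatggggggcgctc
ASNS, chr7:97872409-97872658, minus strand: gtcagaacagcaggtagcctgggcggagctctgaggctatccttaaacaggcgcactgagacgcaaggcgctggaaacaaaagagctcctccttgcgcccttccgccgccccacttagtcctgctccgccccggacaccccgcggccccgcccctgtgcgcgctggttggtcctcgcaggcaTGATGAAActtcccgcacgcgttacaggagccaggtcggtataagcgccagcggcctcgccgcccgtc
TXNIP, chr1:145996580-145996829, minus strand: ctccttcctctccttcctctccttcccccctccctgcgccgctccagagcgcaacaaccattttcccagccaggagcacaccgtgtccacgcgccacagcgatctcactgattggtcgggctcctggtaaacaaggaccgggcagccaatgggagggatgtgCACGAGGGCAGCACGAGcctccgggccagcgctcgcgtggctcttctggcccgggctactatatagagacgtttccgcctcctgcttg
In windows of 300 bases, 250 before and 50 after the start, TGATGNAA occurred in 3.67% of 27305 promoters, 1 a symbol. It occurred in 5 of the 19 ATF4 target genes with a promoter in the table (26.3%), CHAC1, ASNS, SLC3A2, SLC7A1 and GOT1, and in 2 of 15 integrated stress response regulators, ATF3 and PPP1R15B. Among all genes tested it occurred in 2.77% of risen, 1.96% of fallen and 2.56% of uncalled genes. The paired element occurred in 2 of the 27305 promoters, those of TXNIP and KCTD5, of which KCTD5 rose by 0.87 ± 0.17 but lost the call whichever array was left out (adjusted p up to 0.06). None of the 3 printed runs holds both elements, so that no matched letters are shared. The paired pattern is the TXNIP site with only its spacer bases left open, so that its match in TXNIP and its rarity follow from how it was written. A match says only that the letters are there.

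Transporters and synthetases moved more unevenly. Of 34 measured amino acid transporters 8 rose and 2 fell. SLC7A1, the main importer of arginine and other cationic amino acids, read 13.32 and 13.38 in starved cells, against 11.21 and 11.52 in control cells (difference 1.98 ± 0.31, adjusted p = 0.0039). SLC1A4, a carrier of alanine, serine and cysteine, rose by 2.56 ± 0.34, and the cystine importer SLC7A11 and its heavy chain SLC3A2 rose by 2.47 ± 0.52 and 2.15 ± 0.46. The taurine transporter SLC6A6 fell, with a difference of -1.07 ± 0.24. Of 18 cytosolic aminoacyl-tRNA synthetases, which load amino acids onto tRNA, 6 rose and 1 fell: SARS1 rose by 2.09 ± 0.36, YARS1 by 1.91 ± 0.28, WARS1 by 1.80 ± 0.33 and GARS1 by 1.27 ± 0.25, while HARS1 differed by -0.93 ± 0.18. Without 1 array 3 to 4 transporters and 3 to 4 synthetases rose. SLC7A11, SLC3A2, SLC6A6 and GARS1 lost the call whichever of the 4 PC3 arrays was left out (adjusted p up to 0.095). HARS1 lost the call without PC3 -R replicate 2 or PC3 +R replicate 1 (adjusted p up to 0.065).

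Of 24 measured genes of arginine and polyamine metabolism 4 rose and 4 fell (16.7% each, against 9.59% and 10.0% of all genes). ASS1, argininosuccinate synthetase, the rate-limiting enzyme of arginine synthesis from citrulline, read 9.02 and 9.37 in starved cells, against 7.23 and 6.56 in control cells. It was near background in control cells and rose by 2.305 ± 0.25 (adjusted p = 8.1e-04). ASL, which completes the same route, went the other way, at 7.51 and 7.09 in starved and 8.24 and 7.93 in control cells. SAT1, which acetylates polyamines for breakdown and export, read 12.85 and 12.87 in starved cells, against 10.48 and 10.06 in control cells. Differences of the others were 0.70 for AZIN1, which protects ornithine decarboxylase, 0.69 for the creatine enzyme GATM, near background in both groups, -0.74 for spermine synthase SMS, -0.98 for the decarboxylase antizyme OAZ2 and -1.597 for GAMT, the second enzyme of creatine synthesis. Without 1 array 2 of the list rose and 0 to 2 fell. ASL, AZIN1, GATM and SMS lost the call whichever of the 4 PC3 arrays was left out (adjusted p up to 0.22). OAZ2 lost the call without PC3 -R replicate 1 or PC3 +R replicate 1 (adjusted p up to 0.055). GAMT lost the call without PC3 -R replicate 1 or PC3 +R replicate 2 (adjusted p up to 0.071).

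Of 12 stress-induced secreted factors 5 rose and 0 fell. Besides GDF15, STC2 and VEGFA these were INHBE, an activin subunit, at 3.67 and 3.90 in starved and 3.12 and 2.40 in control cells, and ADM2, an adrenomedullin-related peptide, at 5.33 and 5.24 in starved and 4.32 and 4.26 in control cells, both near background in both groups. FGF21, a hormone that the stress response induces in liver, was near background and not called, at 5.19 and 5.09 in starved and 4.86 and 4.68 in control cells (adjusted p = 0.19). The endoplasmic reticulum list gave 10 rises and 0 falls of 32 measured. ERN1, which encodes the stress sensor IRE1, rose by 2.41 ± 0.48, its splicing target XBP1 by 2.13 ± 0.25, and HERPUD1 and SEL1L, both parts of the degradation machinery of this compartment, by 2.24 ± 0.17 and 1.66 ± 0.26. Of 25 NRF2 target genes 6 rose and 0 fell, with NFE2L2, which encodes NRF2, at 11.87 and 11.76 in starved and 10.46 and 10.42 in control cells, the efflux pump ABCC3 at 8.37 and 8.79 in starved and 7.12 and 6.59 in control cells and ferritin light chain FTL at 14.95 and 14.86 in starved and 13.96 and 13.66 in control cells. Without 1 array 4 to 6 genes of the endoplasmic reticulum list and 3 to 4 of the NRF2 list rose. INHBE and ERN1 lost the call without PC3 -R replicate 1, PC3 -R replicate 2 or PC3 +R replicate 2 (adjusted p up to 0.14). FTL lost the call without PC3 -R replicate 1 or PC3 +R replicate 2 (adjusted p up to 0.057).

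**Figure D2:**
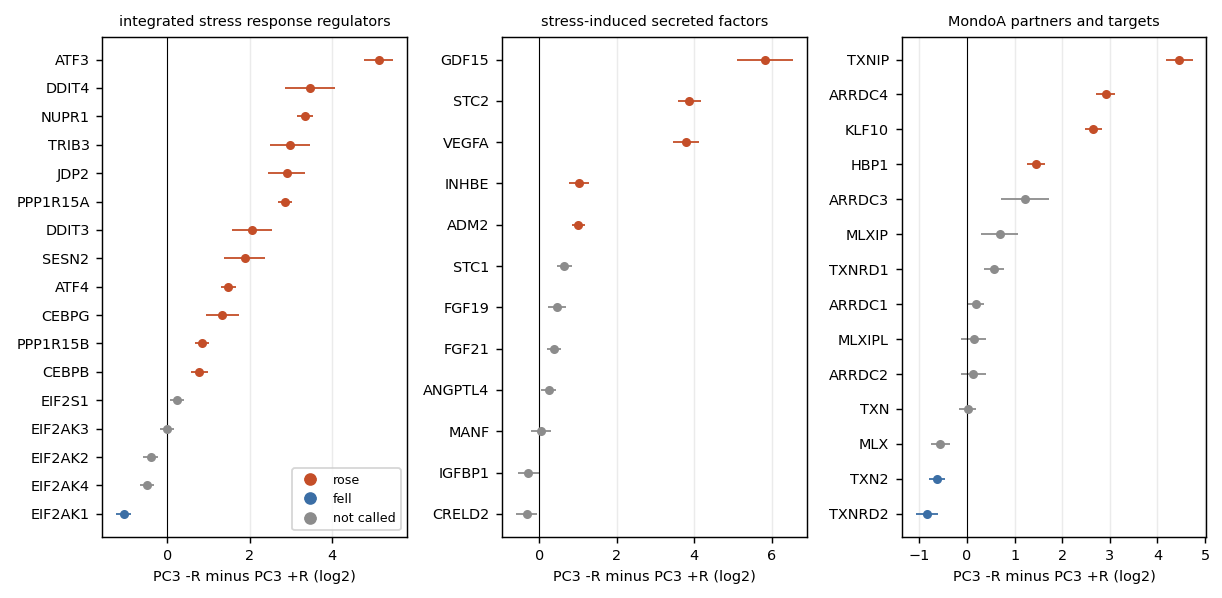
Differences between PC3 -R and PC3 +R (log2, bars: SE of the limma fit) for every measured member of 3 lists. Of the integrated stress response regulators 12 of 17 rose, of the secreted factors 5 of 12 and of the MondoA list 4 of 14.

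MondoA is a glucose- and energy-responsive transcription factor that acts with MLX. Of 14 measured partners and targets 4 rose and 2 fell. TXNIP, an arrestin-like protein that binds thioredoxin and limits glucose uptake, was near background in control cells and read 11.36 and 11.18 in starved cells, against 6.84 and 6.79 in control cells (difference 4.45 ± 0.28, adjusted p = 7.0e-05). Its paralog ARRDC4 read 8.99 and 9.32 in starved cells, against 6.19 and 6.30 in control cells. KLF10 rose by 2.65 ± 0.18 and HBP1, a repressor of cell cycle genes, by 1.44 ± 0.19. MLX was not called, at 9.61 and 9.50 in starved and 10.17 and 10.06 in control cells. MLXIP, which encodes MondoA, was not called either but was near background in both groups, at 7.62 and 7.14 in starved and 6.03 and 7.34 in control cells. The mitochondrial thioredoxin genes TXN2 and TXNRD2 differed by -0.63 and -0.85. TXN2 and TXNRD2 lost the call whichever of the 4 PC3 arrays was left out (adjusted p up to 0.2).

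Transcription factors that respond early to signals rose where they passed the test. Of 30 immediate early factors 11 rose and 0 fell, and 7 to 8 rose when 1 array was left out. The largest difference of this list belonged to DUSP1, a phosphatase gene counted in it and described below. Risen Krüppel-like factors included KLF6 at 13.87 and 13.82 in starved and 11.70 and 11.37 in control cells. KLF5 read 13.10 and 13.37 in starved and 11.16 and 10.80 in control cells. Of 28 FOXO and KLF factors and targets 12 rose and 2 fell, which included KLF7, with 2.53 ± 0.22, and among all 16 genes whose symbol begins with KLF 5 rose and 0 fell. DUSP1, a phosphatase that switches off MAP kinases, read 11.47 and 11.22 in starved cells, against 7.89 and 7.97 in control cells (difference 3.42 ± 0.42). In its list of MAP kinase feedback genes 8 of 25 rose and 3 fell. DUSP10, DUSP5 and the EGF receptor inhibitor ERRFI1 rose by 2.03 ± 0.40, 1.73 ± 0.22 and 1.94 ± 0.21, while SPRY1, an inhibitor of growth factor signalling, read 10.41 and 10.18 in starved cells, against 12.03 and 11.74 in control cells, and ETV4 and DUSP9 differed by -0.89 ± 0.19 and -1.02 ± 0.21. With 1 array left out, the dual-specificity phosphatases and MAPK feedback list held 3 to 5 rises and 1 to 2 falls and the FOXO and KLF factors and targets list held 9 to 12 rises and 0 to 1 falls. DUSP9 lost the call without PC3 -R replicate 1, PC3 +R replicate 1 or PC3 +R replicate 2 (adjusted p up to 0.084). DUSP10 lost the call without PC3 -R replicate 2, PC3 +R replicate 1 or PC3 +R replicate 2 (adjusted p up to 0.074). ETV4 lost the call without PC3 -R replicate 2 or PC3 +R replicate 2 (adjusted p up to 0.091).

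Of 18 clock genes 6 rose and 2 fell. NR1D1 and NR1D2, the nuclear receptors of the repressor limb, rose by 1.98 ± 0.22 and 1.62 ± 0.28, the repressors NFIL3 and BHLHE40 by 1.75 ± 0.28 and 1.599 ± 0.25, and CLOCK fell, at 11.18 and 11.09 in starved and 12.10 and 11.71 in control cells. Of 15 growth arrest genes and CDK inhibitors 5 rose and 0 fell, and all 5 rose whichever array was left out. GADD45A, a stress-inducible brake on the cell cycle, read 13.44 and 13.57 in starved cells, against 10.17 and 10.03 in control cells. CDKN1A, which encodes the CDK inhibitor p21, read 9.07 and 9.43 in starved cells, against 7.12 and 6.498 in control cells. The stress kinase PLK2, GADD45B and the CDK inhibitor CDKN2B rose by 1.502 ± 0.20, 1.33 ± 0.21 and 1.32 ± 0.22. Of 28 p53 target genes 8 rose and 4 fell. Among them TNFRSF10A, a receptor of the death ligand TRAIL, read 13.51 and 13.66 in starved cells, against 11.64 and 11.93 in control cells. The 4 that fell were POLH and DDB2, both of DNA damage tolerance and repair, with -1.39 ± 0.20 and -1.22 ± 0.22, RPS27L with -0.87 ± 0.24 and CCNG1 with -0.80 ± 0.20. TNFRSF10A was also the 1 risen gene of 18 death receptors and ligands, where 3 fell (5.56% and 16.7%, against 9.59% and 10.0% of all genes). The fallen were the adaptor FADD with -0.77 ± 0.22 and, near background in both groups, TNFSF10, which encodes TRAIL, with -0.84 ± 0.20 and CASP10 with -0.98 ± 0.29. DDB2 was near background in both groups as well. After the loss of any 1 array, the clock genes list held 4 to 6 rises and 0 to 1 falls, the p53 target genes list held 7 rises and 2 falls and the death receptors and their ligands list held 1 to 2 rises and 0 to 2 falls. RPS27L, CCNG1 and FADD lost the call whichever of the 4 PC3 arrays was left out (adjusted p up to 0.2). CLOCK, TNFSF10 and CASP10 lost the call without PC3 -R replicate 1, PC3 -R replicate 2 or PC3 +R replicate 1 (adjusted p up to 0.25).

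In the BCL2 family, which sets the threshold of mitochondrial cell death, 3 of 16 measured genes rose and 2 fell (18.8% and 12.5%, against 9.59% and 10.0% of all genes). The risen members were BMF and PMAIP1, both BH3-only genes that promote death, at 7.45 and 7.73 in starved and 5.70 and 5.98 in control cells and 11.79 and 11.85 in starved and 10.63 and 9.78 in control cells, and BCL2L2, which opposes it, with a difference of 0.87 ± 0.22. The fallen members were the BH3-only gene BAD, at 8.02 and 7.95 in starved and 9.25 and 9.73 in control cells, and the effector BAK1, with -0.98 ± 0.21. The NKG2D ligands, cell surface proteins that natural killer cells recognise, had 2 risen and 1 fallen of 8: ULBP1 read 9.39 and 9.08 in starved cells, against 6.90 and 7.13 in control cells, ULBP2 rose by 1.49 ± 0.31 and MICB fell, with -0.83 ± 0.18. In the 4 refits, the apoptosis regulators of the BCL2 family list held 2 to 3 rises and 1 to 2 falls and the NKG2D ligands list held 1 rise and 0 falls. BCL2L2, ULBP2 and MICB lost the call whichever of the 4 PC3 arrays was left out (adjusted p up to 0.13). BAK1 lost the call without PC3 -R replicate 1, PC3 -R replicate 2 or PC3 +R replicate 1 (adjusted p up to 0.094).

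Autophagy genes rose more often than they fell, 15 against 2 of 43 measured, and 6 to 10 rose when 1 array was left out. GABARAPL1, which coats autophagosome membranes, read 12.69 and 13.10 in starved cells, against 9.69 and 9.29 in control cells. ATG12, part of the conjugation system that lipidates such proteins, read 13.99 and 14.44 in starved cells, against 11.92 and 11.93 in control cells. The cargo receptor SQSTM1 and MAP1LC3B, the other main membrane coat, rose by 1.64 ± 0.23 and 1.82 ± 0.49. WIPI2 and ATG2A, both of the early membrane, fell, with -0.81 ± 0.19 and -0.80 ± 0.19. MAP1LC3B, WIPI2 and ATG2A lost the call whichever of the 4 PC3 arrays was left out (adjusted p up to 0.14).

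Of 38 lysosome and TFEB target genes 9 rose and 3 fell. The cholesterol exporter NPC1 read 13.76 and 13.94 in starved cells, against 12.36 and 12.46 in control cells, and cathepsin CTSD, the membrane protein CD63 and the protease TPP1 rose by 1.08 ± 0.19, 1.07 ± 0.18 and 1.003 ± 0.19. The glycosidases GLA and GUSB fell, with -1.07 ± 0.21 and -1.27 ± 0.31. Genes of nutrient sensing by mTORC1 went both ways, 7 up and 5 down of 36, and 1 rose when 1 array was left out. LAMTOR3, part of the lysosomal scaffold of mTORC1, rose by 1.23 ± 0.18, the RAG GTPase RRAGC by 0.86 ± 0.17, FNIP1 by 0.86 ± 0.19 and SESN2, a leucine sensor and stress gene, by 1.88 ± 0.50. NPRL3, of the complex that restrains the RAG GTPases, read 9.82 and 9.73 in starved cells, against 11.13 and 11.21 in control cells, KPTN, of the complex that anchors it to lysosomes, differed by -1.21 near background in both groups, and MLST8, an mTOR subunit, differed by -0.83 ± 0.20. SESN3, a second sestrin, differed by -2.93 ± 0.55 but was near background in both groups, at 3.95 and 2.71 in starved and 6.33 and 6.18 in control cells. In refits without 1 array, the lysosome and TFEB target genes list held 2 to 5 rises and 0 to 1 falls. GUSB, RRAGC, FNIP1, SESN2 and MLST8 lost the call whichever of the 4 PC3 arrays was left out (adjusted p up to 0.14). TPP1 and SESN3 lost the call without PC3 -R replicate 2 or PC3 +R replicate 1 (adjusted p up to 0.062). GLA lost the call without PC3 -R replicate 2 or PC3 +R replicate 2 (adjusted p up to 0.067). CTSD lost the call without PC3 +R replicate 1 (adjusted p up to 0.053).

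Zinc finger genes were the list with the most risen members. Of 513 genes with a ZNF or ZFP symbol, most of which encode DNA-binding repressors, 117 rose and 10 fell (22.8% and 1.95%), with a median of 0.30, and 278 were near background in both groups. Without 1 array 47 to 70 rose and 4 to 6 fell. ZNF773 read 9.90 and 10.16 in starved cells, against 7.81 and 7.81 in control cells, and ZNF419 read 9.76 and 9.99 in starved cells, against 7.72 and 7.85 in control cells. ZNF14 and ZNF841 rose by 2.05 ± 0.28 and 1.97 ± 0.21. The fallen members were led by ZNF365, a centrosomal protein gene, at 10.04 and 10.19 in starved and 12.47 and 12.44 in control cells, followed by ZNF618, ZNF511 and ZNF672 with -1.54, -1.54 and -1.20. Among families of at least 10 genes with a shared symbol root, chosen after their counts were seen, the related ZBTB genes had 11 of 40 risen and 0 fallen, the AKAP anchoring proteins 6 of 14 risen and 1 fallen, and the ATXN ataxins 4 of 10 risen and 0 fallen. In the 4 refits 4 to 9 ZBTB, 3 to 4 AKAP and 1 to 3 ATXN genes rose. ZNF672 lost the call without PC3 +R replicate 1 (adjusted p up to 0.051).

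Chromatin enzymes that use methyl groups or ketoglutarate did not move as a block, with 9 of 43 histone methyltransferases and Jumonji or TET enzymes risen and 10 fallen. The demethylase KDM7A read 7.87 and 8.15 in starved cells, against 5.57 and 5.24 in control cells, and KDM3A rose by 1.08 ± 0.17. The methyltransferase SUV39H1 read 11.12 and 10.96 in starved cells, against 12.30 and 12.48 in control cells, the demethylase KDM2B differed by -1.38 ± 0.18 and the methyltransferase EZH2 by -1.48 ± 0.33. Replication-dependent histone genes, whose mRNA is made in S phase, had 32 of 61 fallen and 3 risen, a median of -1.25, and 22 to 25 fell when 1 array was left out. H1-3, a linker histone gene, read 7.23 and 6.04 in starved cells, against 11.73 and 11.45 in control cells, and H3C1 read 5.97 and 5.14 in starved cells, against 10.20 and 9.88 in control cells. H2AC4 and H2BC14 differed by -4.61 ± 0.40 and -5.69 ± 0.64, and H2AC6 rose by 1.49 ± 0.24. Histone genes share near-identical coding sequence, and signal between copies may not be separable on these probe sets. With 1 array left out, the histone methyltransferases and Jumonji demethylases list held 2 to 5 rises and 4 to 6 falls. EZH2 lost the call without PC3 -R replicate 1, PC3 -R replicate 2 or PC3 +R replicate 1 (adjusted p up to 0.1).

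**Figure D3:**
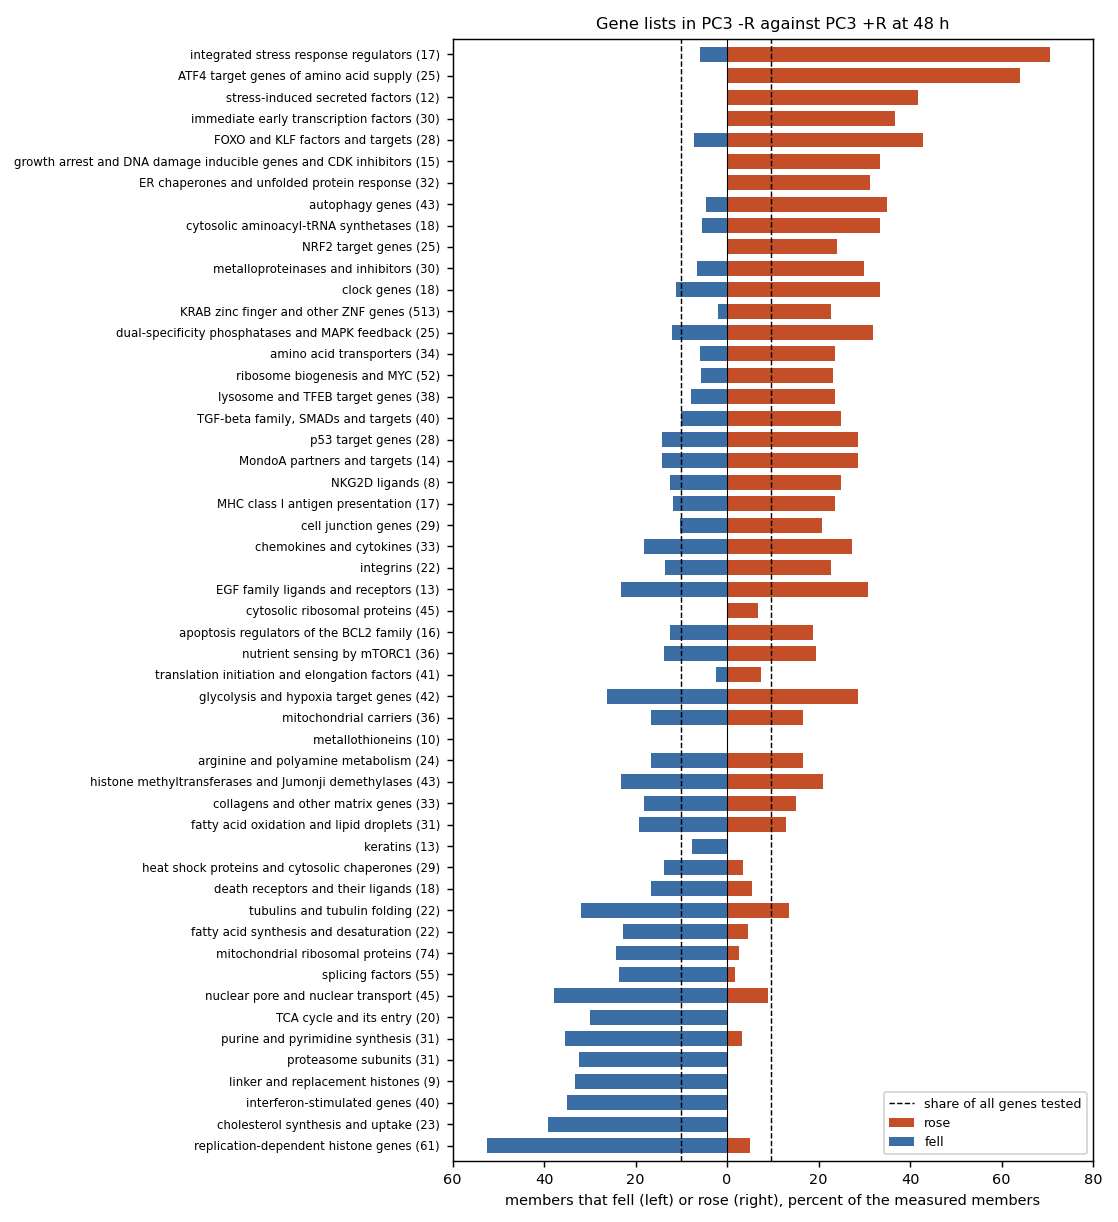
Share of measured members that rose (right) or fell (left) in PC3 -R against PC3 +R for 52 gene lists, with the number measured in parentheses and dashed lines at the shares over all genes, 9.59% and 10.0%. Lists of the integrated stress response and ATF4 targets lie at the top, with 70.6% and 64% risen, and replication-dependent histones at the bottom, with 52.5% fallen.

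Called cell surface, junction and matrix genes had no common direction. Of 29 cell junction genes 6 rose and 3 fell. The tight junction genes CLDN1 and OCLN read 9.12 and 9.72 in starved cells, against 5.73 and 6.53 in control cells, and 10.98 and 10.75 in starved cells, against 7.92 and 8.15 in control cells. Both rose, by 3.29 ± 0.33 and 2.83 ± 0.20, as did CDH2, the cadherin of neural and mesenchymal cells, by 2.54 ± 0.32 and CLDN12 by 1.28 ± 0.22. CDH11, another mesenchymal cadherin, read 9.94 and 9.55 in starved cells, against 11.39 and 11.16 in control cells, and the desmosome linker JUP differed by -0.92 ± 0.22. Of 13 keratins 0 rose and 1 fell, KRT8 at 12.91 and 12.98 in starved and 13.97 and 13.98 in control cells. After the loss of any 1 array, the cell junction genes list held 6 rises and 1 to 2 falls. KRT8 lost the call whichever of the 4 PC3 arrays was left out (adjusted p up to 0.086). JUP lost the call without PC3 -R replicate 2, PC3 +R replicate 1 or PC3 +R replicate 2 (adjusted p up to 0.15).

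Integrins, the receptors that hold cells to matrix, had 5 risen and 3 fallen of 22. ITGB4, the hemidesmosome subunit that binds laminin, read 11.71 and 11.82 in starved cells, against 9.35 and 9.19 in control cells. ITGAV and ITGA3 rose by 2.004 ± 0.21 and 1.81 ± 0.19. ITGB3, a partner of ITGAV, read 6.47 and 6.56 in starved cells, against 8.78 and 8.62 in control cells, and ITGA5, of the fibronectin receptor, read 8.49 and 8.43 in starved cells, against 9.98 and 9.93 in control cells. Matrix genes gave 5 rises and 6 falls of 33 (15.2% and 18.2%, against 9.59% and 10.0% of all genes). Fibronectin FN1 read 13.19 and 13.54 in starved and 12.19 and 11.97 in control cells, and laminin LAMB2 rose by 1.55 ± 0.17. FBLN1, NID1 and HSPG2, all of basement membranes or elastic fibres, differed by -1.67 ± 0.17, -1.36 ± 0.24 and -1.31 ± 0.21. Of 30 proteases and inhibitors 9 rose and 2 fell. SERPINE2, an inhibitor of thrombin and urokinase, read 12.14 and 12.21 in starved cells, against 9.80 and 9.83 in control cells, the urokinase receptor PLAUR rose by 1.91 ± 0.24, and ADAM19 and the collagenase MMP13 differed by -1.67 ± 0.18 and -1.36 ± 0.38. In the 4 refits, the integrins list held 3 to 4 rises and 2 to 3 falls, the collagens and other matrix genes list held 3 to 4 rises and 3 to 5 falls and the metalloproteinases and inhibitors list held 4 to 6 rises and 1 to 2 falls. MMP13 lost the call without PC3 -R replicate 1, PC3 -R replicate 2 or PC3 +R replicate 1 (adjusted p up to 0.21).

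Of 13 ligands and receptors of the EGF family 4 rose and 3 fell. EGFR read 11.39 and 11.46 in starved cells, against 9.88 and 9.99 in control cells. HBEGF, one of its ligands, read 8.49 and 8.73 in starved cells, against 6.33 and 6.58 in control cells. ERBB3, a receptor with little kinase activity of its own, read 5.47 and 4.96 in starved cells, against 6.93 and 6.76 in control cells and was near background in both groups. The ligands EPGN and BTC, also near background, rose by 1.18 ± 0.24 and 1.10 ± 0.30. Chemokines and cytokines split as well, 9 up and 6 down of 33, with 21 near background in both groups. IL24, a cytokine of the IL10 family, read 9.14 and 8.604 in starved cells, against 6.31 and 5.89 in control cells, and the neutrophil attractant CXCL3 rose by 1.31 ± 0.17, while CXCL6, an attractant of the same kind, read 6.77 and 7.24 in starved cells, against 9.29 and 9.11 in control cells. IL1A and CCL20 rose by 1.91 ± 0.37 and 1.23 ± 0.26. CCL2, which attracts monocytes, read 4.58 and 5.00 in starved cells, against 6.66 and 7.07 in control cells, and CCL26 and CXCL11 differed by -1.54 ± 0.20 and -0.98 ± 0.21, all 3 near background in both groups. In refits without 1 array, the EGF family ligands and receptors list held 2 to 3 rises and 1 to 2 falls and the chemokines and cytokines list held 3 to 5 rises and 3 falls. BTC and CXCL11 lost the call whichever of the 4 PC3 arrays was left out (adjusted p up to 0.2). EPGN lost the call without PC3 -R replicate 2, PC3 +R replicate 1 or PC3 +R replicate 2 (adjusted p up to 0.084). IL1A lost the call without PC3 +R replicate 1 or PC3 +R replicate 2 (adjusted p up to 0.055). CCL20 lost the call without PC3 -R replicate 2 or PC3 +R replicate 1 (adjusted p up to 0.096).

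Of 40 TGF-beta family, SMAD and target genes 10 rose and 4 fell. INHBA, an activin subunit, read 15.004 and 14.91 in starved cells, against 12.62 and 12.23 in control cells. FST, which binds and blocks activin, rose by 1.68 ± 0.19, and SKIL, a repressor of SMAD targets, by 1.51 ± 0.18. The coreceptor TGFBR3 read 4.53 and 4.66 in starved cells, against 6.38 and 6.72 in control cells and was near background in both groups, and the inhibitor SMAD6 differed by -1.24 ± 0.27. With 1 array left out, the TGF-beta family, SMADs and targets list held 6 to 7 rises and 1 to 2 falls. SMAD6 lost the call without PC3 -R replicate 2 or PC3 +R replicate 2 (adjusted p up to 0.099).

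**Figure D4:**
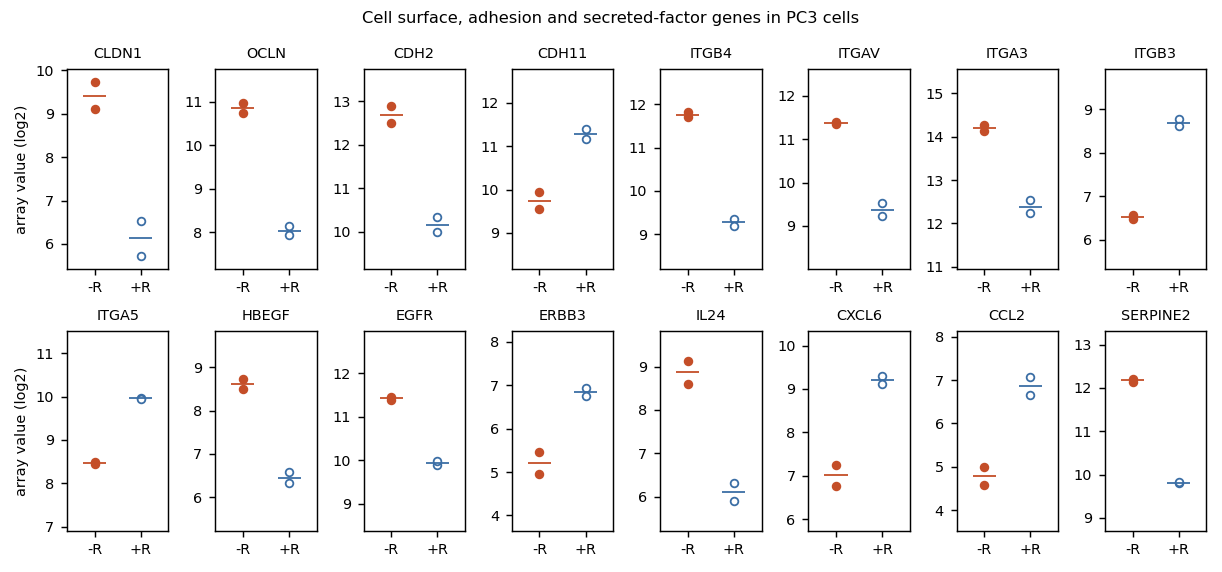
Array values (log2) of 16 cell surface, adhesion and secreted-factor genes, with PC3 -R (filled) left of PC3 +R (open), each point an array and each line a group mean; every panel spans the same number of log2 units. Members of one family lie on opposite sides, as ITGB4 (2.49) and ITGB3 (-2.18) do.

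The 20 largest falls outside the classes set aside were mixed in role. UTS2, which encodes the vasoactive peptide urotensin II, read 7.42 and 7.54 in starved cells, against 13.43 and 12.77 in control cells. RCAN2, a regulator of the phosphatase calcineurin, read 5.94 and 5.09 in starved cells, against 11.03 and 10.23 in control cells. SLC25A10, the mitochondrial dicarboxylate carrier, read 5.02 and 5.48 in starved cells, against 9.48 and 9.97 in control cells, and MAP2K6, a kinase that activates p38, read 6.22 and 5.96 in starved cells, against 10.79 and 10.18 in control cells. All 4 were near background in starved cells, so that their differences of -5.63 ± 0.24, -5.11 ± 0.36, -4.47 ± 0.24 and -4.39 ± 0.29 may understate the falls. HAS3, a hyaluronan synthase, stayed above background and read 9.31 and 8.69 in starved cells, against 12.79 and 12.58 in control cells (difference -3.68 ± 0.25, adjusted p = 9.2e-05).

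Further down the ranking stood HOXB13, the homeobox gene of prostate epithelium, at 9.27 and 8.90 in starved and 12.06 and 11.82 in control cells, and SKP2, the F-box protein that marks the CDK inhibitor p27 for degradation, at 10.55 and 10.45 in starved and 13.42 and 13.50 in control cells. The secreted proteins C1QL1 and PLA2G7, of which PLA2G7 is a phospholipase that inactivates platelet-activating factor, differed by -3.58 ± 0.19 and -3.29 ± 0.24. Differences were -3.23 for CLTRN, a partner of amino acid transporters in kidney, -3.14 for the adenylate kinase AK5, -3.31 for ASB9 and -2.84 for RTKN2, whose starved means lay above the background value. CNIH2, an auxiliary protein of glutamate receptors, GPSM2, which orients the mitotic spindle, EFR3B, a membrane anchor of a lipid kinase, FBXO43, an inhibitor of the anaphase complex in meiosis, and TCF19 were near background in starved cells, with -3.45, -3.39, -3.26, -2.88 and -2.87. GPSM2 and FBXO43 have roles in division, and SKP2 acts on a CDK inhibitor, but they were not on the list set aside. Other ranked genes may be tied to division as well. The remaining 2, ACAT2 and SESN3, are given with their lists.

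Sterol and fatty acid synthesis genes that passed the test fell, with ME1 as the exception. Of 23 measured cholesterol synthesis and uptake genes 0 rose and 9 fell, with a median of -1.07, and 5 to 6 fell when 1 array was left out. ACAT2, the cytosolic thiolase at the head of the route, read 7.95 and 8.01 in starved cells, against 11.10 and 10.77 in control cells. DHCR7, its last enzyme, read 11.28 and 11.13 in starved cells, against 13.75 and 13.50 in control cells, and FDPS, which makes farnesyl pyrophosphate, read 10.19 and 10.13 in starved cells, against 12.30 and 12.11 in control cells. INSIG1, the sterol-responsive brake on SREBP, differed by -2.12 ± 0.61. In fatty acid synthesis 1 of 22 rose and 5 fell, with ACLY, which supplies cytosolic acetyl-CoA, at 11.87 and 11.89 in starved and 13.53 and 13.46 in control cells, the desaturase FADS2 differing by -1.75 ± 0.30, ACACB by -1.19 ± 0.32 and the malic enzyme ME1 by 0.91 ± 0.21. Of 31 fatty acid oxidation and lipid droplet genes 4 rose and 6 fell (12.9% and 19.4%, against 9.59% and 10.0% of all genes). PLIN2, the droplet coat protein, read 12.85 and 12.88 in starved cells, against 10.87 and 11.13 in control cells, CPT1A, the gate of mitochondrial import, rose by 1.49 ± 0.20, and PNPLA2, the main triglyceride lipase, by 1.44 ± 0.24. The matrix enzymes ECI2 and HADH read 12.66 and 12.43 in starved cells, against 14.98 and 14.77 in control cells, and 8.74 and 8.55 in starved cells, against 10.71 and 10.68 in control cells, and PLIN3 differed by -1.25 ± 0.17. After the loss of any 1 array, the fatty acid synthesis and desaturation list held 0 to 1 rises and 2 to 3 falls and the fatty acid oxidation and lipid droplets list held 3 to 4 rises and 3 to 4 falls. INSIG1 and ACACB lost the call whichever of the 4 PC3 arrays was left out (adjusted p up to 0.18). ME1 lost the call without PC3 -R replicate 2, PC3 +R replicate 1 or PC3 +R replicate 2 (adjusted p up to 0.13).

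Glycolysis and hypoxia genes were called often in both directions, 12 up and 11 down of 42 (28.6% and 26.2%). Besides VEGFA, the largest rises were ADM, a vasodilator peptide, at 8.71 and 9.56 in starved and 5.95 and 6.89 in control cells, and MXI1, a MYC antagonist, at 12.29 and 12.42 in starved and 10.22 and 10.06 in control cells. The largest falls were carbonic anhydrase CA12, which read 9.10 and 8.82 in starved cells, against 11.58 and 11.77 in control cells, and the glycolytic enzymes ALDOC, PGAM1 and PFKL, with -1.95 ± 0.26, -1.61 ± 0.19 and -1.55 ± 0.24. In the TCA cycle list 0 rose and 6 of 20 fell, with isocitrate dehydrogenase IDH2 at 7.95 and 7.16 in starved and 9.71 and 9.76 in control cells and the pyruvate dehydrogenase subunit PDHB differing by -1.05 ± 0.18. Of 36 mitochondrial carriers 6 rose and 6 fell (16.7% each, against 9.59% and 10.0% of all genes). Besides SLC25A10, SLC25A40 differed by -1.51 ± 0.22, and the carnitine carrier SLC25A20 rose by 1.23 ± 0.21. After their counts were seen, the ALDH dehydrogenases stood out with 0 of 19 risen and 7 fallen, and the COQ genes of coenzyme Q synthesis with 0 of 11 risen and 5 fallen. In the 4 refits 2 to 5 ALDH and 0 to 2 COQ genes fell. In the 4 refits, the glycolysis and hypoxia target genes list held 6 to 7 rises and 8 to 9 falls, the TCA cycle and its entry list held 0 rises and 2 to 3 falls and the mitochondrial carriers list held 2 to 3 rises and 5 falls. 

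Of 31 nucleotide synthesis genes 1 rose and 11 fell. RRM2, the ribonucleotide reductase subunit of S phase, read 10.20 and 10.31 in starved cells, against 13.25 and 13.47 in control cells. Thymidylate synthase TYMS and thymidine kinase TK1 differed by -1.89 ± 0.19 and -2.26 ± 0.19, and CTPS1, which makes CTP, read 10.70 and 10.59 in starved cells, against 12.46 and 12.49 in control cells. GART, of purine synthesis, rose by 0.81 ± 0.18. For comparison, 212 of 264 listed cell division genes fell and 1 rose, and the part of cell cycle arrest in the other falls was not tested. In refits without 1 array, the purine and pyrimidine synthesis list held 0 rises and 9 to 11 falls. GART lost the call whichever of the 4 PC3 arrays was left out (adjusted p up to 0.1).

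Protein production and its controls did not fall together. Of 52 ribosome biogenesis genes 12 rose and 3 fell, and MYC, their best known activator, read 14.72 and 14.75 in starved cells, against 13.04 and 13.04 in control cells (difference 1.70 ± 0.22, adjusted p = 0.0016). RRN3, the factor of rRNA transcription that mTORC1 controls, read 13.07 and 13.22 in starved cells, against 11.37 and 11.46 in control cells, and NOP58 rose by 1.47 ± 0.19. Cytosolic ribosomal protein genes had few calls, 3 up and 0 down of 45 with a median of 0.10, and 0 rose when 1 array was left out. In the translation factor list 3 of 41 rose and 1 fell (7.32% and 2.44%, both under the shares of all genes). EIF6 read 16.16 and 15.94 in starved and 14.46 and 14.52 in control cells. The 2 inhibitors of cap binding moved apart, EIF4EBP1 by 1.54 ± 0.38 and EIF4EBP2 by -1.08 ± 0.17. With 1 array left out, the ribosome biogenesis and MYC list held 4 to 7 rises and 1 to 2 falls and the translation initiation and elongation factors list held 1 to 3 rises and 1 to 2 falls. EIF4EBP1 lost the call without PC3 -R replicate 1, PC3 +R replicate 1 or PC3 +R replicate 2 (adjusted p up to 0.13).

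Other housekeeping machines fell in part. Proteasome subunits had 10 of 31 fallen and 0 risen, and 6 to 7 fell when 1 array was left out, with PSMD3 at 12.44 and 12.06 in starved and 13.84 and 13.94 in control cells and PSMA4 at 12.95 and 12.97 in starved and 14.40 and 14.24 in control cells. Splicing factors had 13 of 55 fallen and 1 risen, and 3 to 5 fell when 1 array was left out. SNRPA1, of the U2 particle, read 11.37 and 11.43 in starved cells, against 13.64 and 13.43 in control cells, and SNRPA, of the U1 particle, differed by -1.51 ± 0.19. Mitochondrial ribosomal proteins had 18 of 74 fallen and 2 risen, led by MRPS28 with -1.57 ± 0.18 and MRPL4 with -1.49 ± 0.20. Nuclear pore and transport genes had 17 of 45 fallen and 4 risen: lamin LMNB1 read 9.01 and 9.10 in starved cells, against 12.50 and 12.52 in control cells, TMPO, which binds it, read 10.33 and 10.60 in starved cells, against 12.41 and 12.57 in control cells, and the importin KPNA4 rose by 1.30 ± 0.18. Of 22 tubulins and folding factors 7 fell and 3 rose, with TUBB4A and TBCD differing by -2.28 ± 0.25 and -2.16 ± 0.18 and TUBE1 at 12.68 and 12.66 in starved and 10.36 and 10.45 in control cells. Heat shock genes had 4 of 29 fallen, 1 risen and 24 not called, and their fallen share of 13.8% was near the 10.0% of all genes. HSPA2 led the falls with -1.45 ± 0.20, near background in both groups. Of 10 metallothioneins 0 rose and 0 fell in limma, with 0 at an unadjusted p under 0.05. After the loss of any 1 array, the proteasome subunits list held 0 rises and 6 to 7 falls, the mitochondrial ribosomal proteins list held 0 rises and 8 to 10 falls, the nuclear pore and nuclear transport list held 1 to 2 rises and 6 to 9 falls, the tubulins and tubulin folding list held 1 rise and 2 to 3 falls and the heat shock proteins and cytosolic chaperones list held 0 to 1 rises and 2 to 3 falls. 

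The interferon list holds antiviral products of interferon signalling. Of 40 measured 0 rose and 14 fell, with a median of -0.40, and 22 were near background in both groups. With 1 array left out 6 to 10 fell and 0 rose, except that 2 rose without PC3 +R replicate 1. Outside the list, and named after their values were seen, the interferon-inducible gene IFI16 rose by 2.13 ± 0.21 and IFIT1B, near background in both groups, by 0.86 ± 0.24. IFIT1, which binds viral RNA, read 8.45 and 7.65 in starved cells, against 10.72 and 10.50 in control cells. IFI44 read 7.76 and 7.49 in starved cells, against 9.56 and 9.24 in control cells, and USP18, a brake on interferon signalling, read 4.99 and 5.21 in starved cells, against 6.88 and 7.01 in control cells. OAS3, a sensor of double-stranded RNA, differed by -1.64 ± 0.24. Of 17 genes of MHC class I presentation 4 rose and 2 fell: the class I gene HLA-E and the trimming peptidase ERAP1 rose by 1.29 ± 0.21 and 1.39 ± 0.20, while the immunoproteasome subunits PSMB8 and PSMB9 differed by -1.72 ± 0.27 and -0.996 ± 0.22. In the 4 refits, the MHC class I antigen presentation list held 2 rises and 1 to 2 falls. IFIT1B lost the call without PC3 -R replicate 1, PC3 +R replicate 1 or PC3 +R replicate 2 (adjusted p up to 0.2). PSMB9 lost the call without PC3 -R replicate 1, PC3 -R replicate 2 or PC3 +R replicate 2 (adjusted p up to 0.098).

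The response of PC3 cells was set against that of CWR22Rv1 cells, which were starved for 48 h in a time course and in an experiment with the ketoglutarate ester DMKG, each with 1 starved and 1 control array. The control array of the time course was labelled as 24 h in control medium, that of the DMKG experiment as 48 h. The difference of the 2 responses, tested as a contrast of the limma model, was positive for 349 genes and negative for 429 (1.97% and 2.43% of genes). The contrast is fragile on the CWR22Rv1 side: 55 and 69 genes passed without the starved or the control array of the DMKG experiment and 141 and 246 without the 48 h or the control array of the time course. Within PC3 cells it gave 119 and 161 without PC3 -R replicate 1, 75 and 156 without PC3 -R replicate 2, 80 and 125 without PC3 +R replicate 1 and 103 and 160 without PC3 +R replicate 2. In the DMKG experiment the deposited values of the starved and the control array were identical for 3821 genes (21.6%), against 8 in the time course, 2 between the starved and 6 between the control PC3 arrays. Of the contrast calls 33 of the positive and 57 of the negative concern such genes.

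Among the 20 largest rises 14 passed this contrast upward, protease inhibitors among them, and among the 20 largest falls 15 passed it downward. Both sets were chosen on the PC3 difference that is a term of the contrast, so that these counts are a description. SLPI differed by 4.24 in PC3 cells and by -0.70 in the time course and 0.13 in the DMKG experiment of CWR22Rv1 cells (difference of responses 4.53, adjusted p = 0.0026). PI3 and CSTA gave differences of responses of 4.36 and 4.28, with -0.00 and -0.40 for PI3 and -0.79 and 0.75 for CSTA in CWR22Rv1 cells. NTN4 and SLFN5 gave 3.72 and 3.42, with deposited values identical in both DMKG-experiment arrays. Rises in both lines were larger in PC3 cells for ATF3, with 5.14 against 1.69 and 3.43, and for TXNIP, with 4.45 against 1.89 and 3.17. Neither passed against the DMKG experiment alone, whose control was labelled as 48 h. GDF15, CHAC1, DDIT4 and DUSP1 gave 5.83, 4.16, 3.46 and 3.42 in PC3 cells, against 4.34, 4.10, 3.20 and 2.89 fitted in CWR22Rv1 cells, and their contrasts did not pass, with differences of responses of 1.48, 0.06, 0.26 and 0.53 and SEs of 1.02, 1.15, 0.85 and 0.60.

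Of the largest falls, UTS2 differed by -5.63 in PC3 cells, against 0.04 and 0.28 in CWR22Rv1 cells (difference of responses -5.79, adjusted p = 0.0011), and RCAN2, HAS3, C1QL1 and CLTRN gave differences of responses of -5.71, -3.59, -3.26 and -3.90. SLC25A10 fell in both lines, with -4.47 in PC3 cells, against -3.52 and -3.80 in CWR22Rv1 cells, and the contrast did not pass (adjusted p = 0.23). Of the lists, integrins held 4 positive and 2 negative calls, cell junction genes 5 and 1, interferon-stimulated genes 2 and 5, and the cholesterol list 0 and 0. MYC gave 1.70 in PC3 cells, against -0.20 and -0.99 in CWR22Rv1 cells, where it was not called (difference of responses 2.29, adjusted p = 0.0082, and 0.051 against the time course alone). Thymidine kinase TK1 gave -2.26 in PC3 cells, against 0.88 and 0.51 in CWR22Rv1 cells, also not called there.

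**Figure D5:**
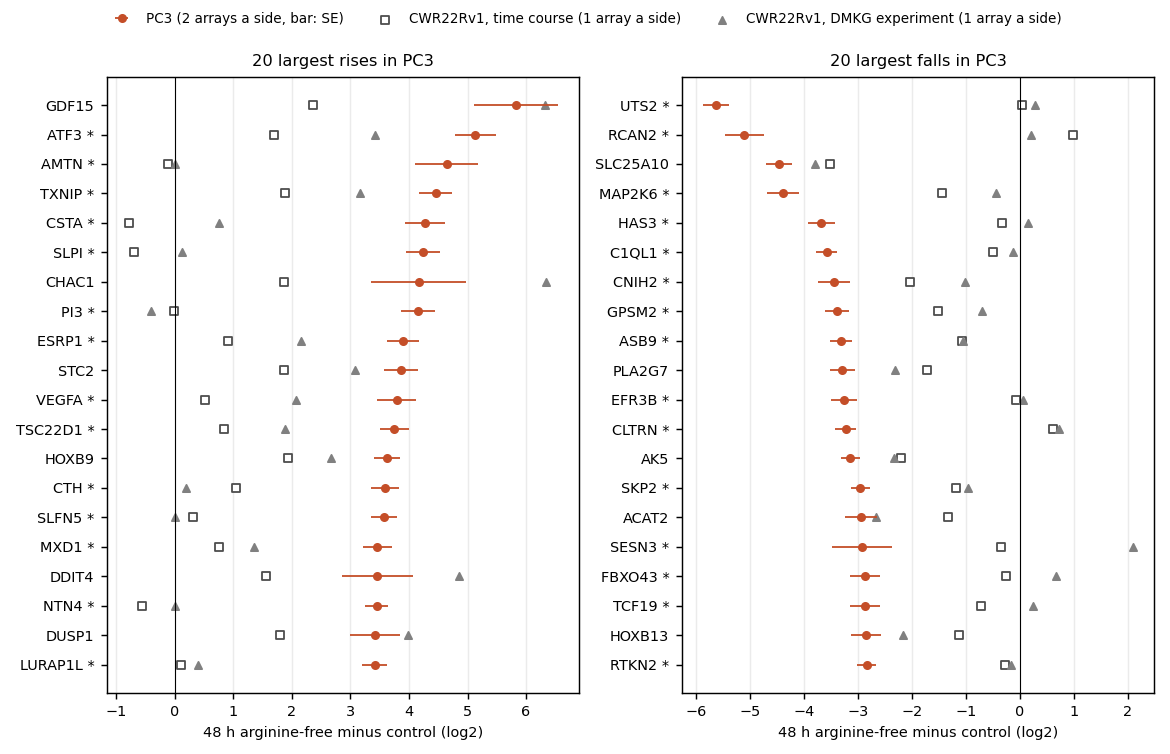
Difference between arginine-free and control medium at 48 h (log2) for the 20 largest rises and 20 largest falls in PC3 cells: circles with SE bars are PC3 cells, squares and triangles the 2 CWR22Rv1 experiments with 1 array a side. A star marks an adjusted p under 0.05 for the difference of responses, which 14 rises and 15 falls have; SLPI lies at 4.24 in PC3 cells and at -0.70 and 0.13 in CWR22Rv1 cells.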

How the data were processed

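RNA of PC3 and CWR22Rv1 cells was hybridised to Clariom S human arrays. The authors deposited 1 table of log2 values for all 10 arrays, made with Transcriptome Analysis Console per the labels, whose summarisation, background correction and version were not given in the sources used here. Replicates were not pooled. Of the 24351 probe sets, 2903 controls and 3739 without a single gene symbol were left out of the gene tests, and for 20 genes with several probe sets the one with the highest mean was used. Symbols came from the platform annotation (a check against RefSeq by Entrez ID changed 0), and RefSeq promoters were matched by symbol.

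The deposited values were not normalised further. A linear model was fitted with limma 3.58.1 in R 4.3.3 to all 10 arrays, with an intercept for each of 3 sets (CWR22Rv1 time course, CWR22Rv1 DMKG experiment, PC3) and effects of starvation at 24 h and 48 h, of DMKG and of starvation in PC3 cells. It left 3 residual degrees of freedom, to which the moderation added 5.09. Tests were two-sided, with Benjamini-Hochberg adjustment over 17687 genes and a threshold of 0.05. The script was tested on simulated data. Array number, here 2 a side, limits the precision. Figures were drawn with matplotlib 3.10.9 in Python 3.11.15.

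Named genes were the 20 largest rises and 20 largest falls after leaving out cell division, oxidative phosphorylation and DNA repair genes and symbol roots of those classes and of histones (555 genes, of which 12 rose and 313 fell), and, from each list of over 15 measured members, up to 4 rises and 4 falls of the largest size plus the regulators it is named for. In shorter lists any member could be named. The members and lists were chosen with earlier results of these data known, so that counts over a list are descriptions and no set test was run. Alternatives were quantile normalisation, centring, a filter on low values, PC3 arrays alone, trend and robust moderation, the mean of probe sets, a replicate block, each array left out, the methods' t-test and a 2-fold minimum.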

Additional observations from a re-analysis of the deposited data

Results flagged for a closer look

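The responses described here differed between the cell lines in the limma contrast, at an adjusted p under 0.05. They are the genes that pass it among the 20 largest rises and 20 largest falls, together with other named genes whose responses differed by at least 2 on the log2 scale, 58 in all. Each value is the difference in PC3 cells minus that in CWR22Rv1 cells at 48 h. Against each CWR22Rv1 experiment alone, 29 of the 58 passed with the time course, 48 with the DMKG experiment, 25 with each and 6 with neither, which were AMTN, IL24, MXD1, CNIH2, IFIT1 and IFI44. The genes were chosen in part on the PC3 difference, which is a term of the contrast.

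The response was higher in PC3 cells for 26 genes. Stress and metabolic genes among them were ATF3 (2.58), NUPR1 (2.23), CTH (2.97), VEGFA (2.49), TXNIP (1.92), PLK2 (2.25) and MYC (2.29). Epithelial and surface genes were AMTN (4.71), CSTA (4.28), SLPI (4.53), PI3 (4.36), ESRP1 (2.37), CLDN1 (3.59), OCLN (2.06), ITGB4 (2.79), ITGAV (2.10), ITGA3 (2.02), SERPINE2 (2.57) and PLAUR (2.07). Secreted and transcription-related genes were NTN4 (3.72), HBEGF (2.15), IL24 (2.33), TSC22D1 (2.39), SLFN5 (3.42), MXD1 (2.41) and LURAP1L (3.17).

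The response was lower in PC3 cells for 32 genes. The largest falls gave UTS2 (-5.79), RCAN2 (-5.71), MAP2K6 (-3.45), HAS3 (-3.59), C1QL1 (-3.26), CNIH2 (-1.92), GPSM2 (-2.28), ASB9 (-2.26), EFR3B (-3.24), CLTRN (-3.90), SKP2 (-1.88), FBXO43 (-3.09), TCF19 (-2.63), RTKN2 (-2.63) and SESN3 (-3.80). Surface and secreted genes gave ITGB3 (-2.34), ITGA5 (-2.36), ADAM19 (-2.12), CCL2 (-2.49) and CXCL6 (-2.16). Interferon-stimulated genes gave IFIT1 (-2.74) and IFI44 (-2.02), neither of which passed against an experiment alone, and metabolic genes ECI2 (-2.24) and CA12 (-2.87). Genes of DNA synthesis and repair, the nucleus and chromatin gave RRM2 (-2.42), TK1 (-2.96), LMNB1 (-2.53), ZNF365 (-2.81), DDB2 (-2.14), H1-3 (-4.24), H2AC4 (-3.29) and H3C1 (-4.08). Of the 58, AMTN, ITGB4, ITGB3, NTN4, HBEGF and SLFN5 have deposited values that are identical in the starved and the control array of the DMKG experiment.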

How the results depend on the processing

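The number of arrays and the test limit the calls. Without 1 PC3 array 721 to 847 genes rose and 898 to 1018 fell, against 1722 and 1773 without any 1 of the 48 h or control CWR22Rv1 arrays, and the contrast with CWR22Rv1 cells gave 75 to 119 higher and 125 to 161 lower responses. With the CWR22Rv1 arrays also left out in turn, a choice made after seeing the data, the contrast gave 55 to 141 higher and 69 to 246 lower responses. A fit with fewer arrays has fewer residual degrees of freedom. Without a 48 h or control CWR22Rv1 array only the PC3 arrays set the spread. For the PC3 calls each such refit is therefore the same as the PC3 arrays alone, and does not weigh the single CWR22Rv1 arrays. The methods' t-test passed 2231 risen and 2167 fallen genes unadjusted and 3 and 7 after Benjamini-Hochberg adjustment. A 2-fold minimum left 853 and 1025. Trend and robust moderation gave 1985 risen and 2028 fallen genes and moved the contrast to 626 and 661, and the cause was not tested. Replicate numbers did not pair the PC3 arrays (r of the replicate 1 deviations from the group means -0.03), and with the replicate block 1393 genes rose, 1545 fell, and the contrast gave 208 and 292. The other alternatives gave 1699 to 1912 risen and 1572 to 1983 fallen genes, each within 1.5 times the counts given. Of the 251 called genes named, none reversed under any alternative, and those that lost the call numbered 49 to 55 without 1 PC3 array, 249 under the adjusted t-test, 33 under the 2-fold minimum, 17 under the unadjusted t-test and at most 13 otherwise. The filter on low values held only 242 of the 251, all of which kept the call, and the rest were not tested under it. Centring raised all differences by 0.06, and medians of at most 3 of 53 lists changed sign under any alternative. Signal near the negative controls limits the size of differences for genes that started or ended there.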

Other observations

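Probe sets without a single gene symbol, 3739 in number, were fitted together with the 17687 genes in a further run, and 245 of them rose and 207 fell in starved PC3 cells.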
